A study of Mus musculus with 8 samples.

Results

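The genes described here are 8 endocytic receptors and their helpers in the mouse yolk sac: Cubn, Amn, Lrp2, Lrp1, Lrpap1, Dab2, Folr1 and Fcgrt. They were chosen by gene symbol, with earlier results of these data known. Every probe set that the platform annotation gives to 1 of them alone was read. This made 15 probe sets of 22626, for 8 of 12393 genes measured. A probe set is a group of short oligonucleotides on the array that together report 1 transcript. Expression had been measured in FVB/N mice at embryonic day 9.5, in 4 erythroid and 4 epithelial laser captures forming 4 pairs, each pair cut from shared slides. The erythroid captures hold primitive erythroid precursors, the first red cells of the embryo, and the epithelial captures hold cells that the labels call epithelial with no layer named. The labels give no mutation, drug or other treatment for either group. Each replicate pooled 2 to 4 yolk sacs from 2 litters, so a value belongs to a pool and not to an embryo. An erythroid cell took 2 to 3 laser pulses and an epithelial cell 1, and 10 to 39 ng of RNA was amplified over 2 labelling cycles.

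The visceral endoderm, the outer epithelium of the rodent yolk sac, takes up maternal proteins from its surroundings, digests them in lysosomes and passes the products on to the embryo. Cubilin (Cubn) binds vitamin B12 carriers, albumin and lipoproteins but has no membrane anchor of its own, and amnionless (Amn) ties it to the apical membrane and carries it there. Megalin (Lrp2), a very large receptor of the LDL receptor family, works with this complex, and the adaptor Dab2 links the tail of megalin to the clathrin coat. The same apparatus is known from the proximal tubule of the kidney.

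All 15 probe sets passed the filter on dim signals, so all 8 members were tested, and 7 of the 8 genes were higher in the epithelial captures. Of the 15 probe sets, 14 passed the test in that direction and 0 in the other, against 7.69% of all 11449 probe sets tested that were called higher in the epithelial captures and 6.19% called lower. With arrays centred on their medians in place of quantile normalisation, 1097 probe sets were called higher and 455 lower, against 881 and 709, and 14 of the 15 member probe sets were called. The test was limma with the pair as a block and Benjamini-Hochberg adjustment over all 11449 probe sets, and a call is an adjusted p under 0.05. The 14 differences called lay between 1.20 and 1.66 on the log2 scale, or 2.29- to 3.16-fold, above 95.5% to 98.8% of the differences of all probe sets tested. The median over the 15 was 1.36, against -0.02 over all probe sets tested. The deposited signals of the 4 epithelial arrays lay above all 4 erythroid ones in 11 of the 15 probe sets, against 6.48% of all tested, and the epithelial array was the higher in every pair in 14, against 18.5%. The exception was Lrp1, at 0.17 ± 0.31 (SE, n = 4 pairs). Since the members were chosen with earlier results known, the shares over all probe sets describe them and test nothing. Differences throughout are epithelial minus erythroid and come from log2(signal + 8.16) after quantile normalisation, while signals are the deposited values, read as linear MAS5 signals since the sources used here do not state their scale. The offset makes the fold of a dim gene look smaller than it is. In captured tissue a higher signal can come from more cells of a type or from more RNA in each cell, and these cannot be told apart.

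**Figure D1:**
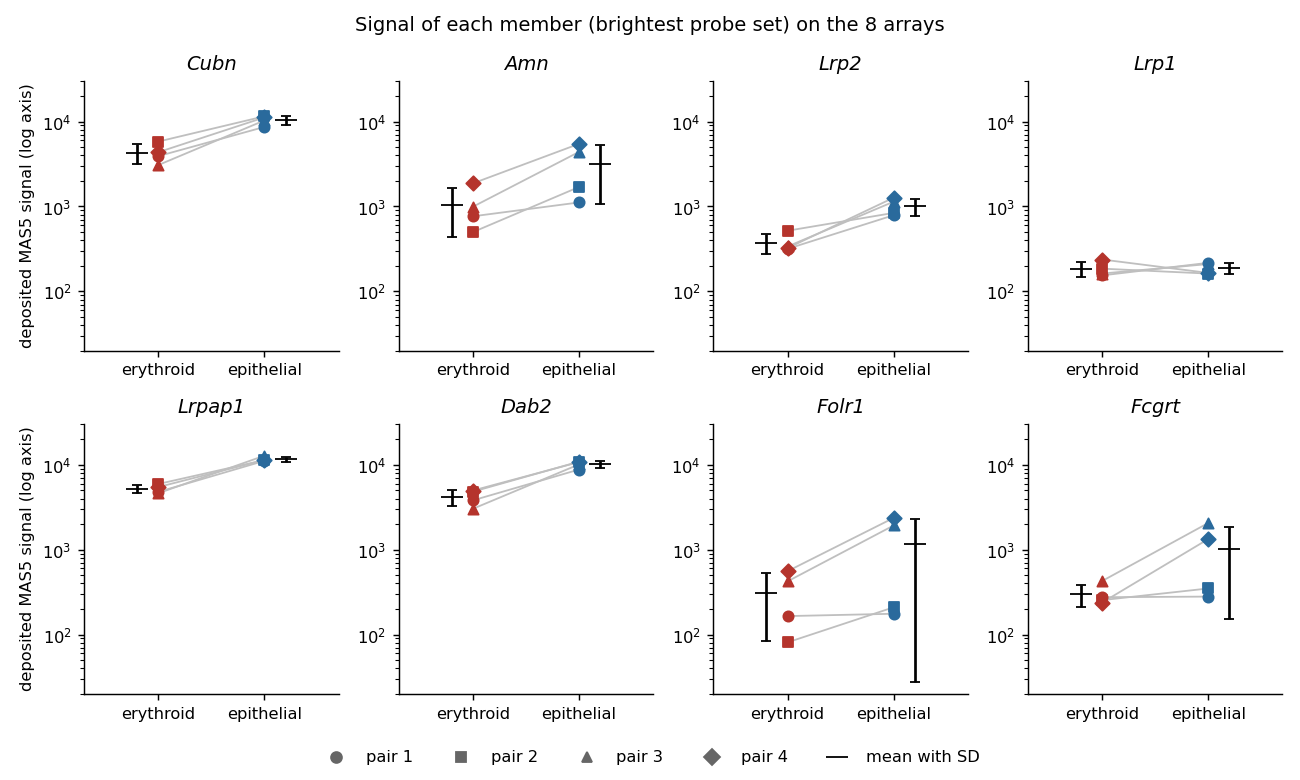
Deposited signal on a log axis for the brightest probe set of each member on the 4 erythroid (red) and 4 epithelial (blue) arrays, with grey lines joining the arrays of a pair and black bars giving the mean with SD (n = 4). The epithelial arrays lie above the erythroid ones without overlap for Cubn, Lrp2, Lrpap1 and Dab2, the groups overlap for Amn, Folr1 and Fcgrt, and Lrp1 lies between 154 and 237 on all 8 arrays. Heights of different genes cannot be set against each other.

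The captures carried the markers of their labels, with some RNA of other cells. All 9 erythroid markers tested were lower in the epithelial captures (median -2.16), with Klf1 at -2.49 ± 0.30 (adjusted p = 0.00133), and 13 of 16 visceral endoderm markers were higher (median 1.60), with Vil1 of microvilli at 1.83 ± 0.21 (adjusted p = 0.00119). The summed signal of the endoderm markers was 68675 to 102394 on the erythroid arrays and 107156 to 181839 on the epithelial ones, and that of the erythroid markers 29759.7 to 58577.3 and 6191 to 13519. In the endoderm sum, Afp and Ttr had means of 26340 and 28477 on the erythroid arrays and 26125 and 29130 on the epithelial ones. Of 16 endoderm and 10 erythroid markers measured, 0 lay at or below background on all 8 arrays. Markers of mesenchyme and mesothelium were lower in the epithelial captures for 7 of 11 tested (median -1.41), though for 2 without pair 3 and 1 without pair 4, with summed signals of 30695.2 to 53958.5 on the erythroid and 7358.57 to 27446.1 on the epithelial arrays and Prrx1 and Thy1 at or below background. Called lower were also 2 of 5 platelet, 1 of 9 endothelial (0 of 9 without pair 3 or pair 4), 0 of 7 macrophage and 0 of 7 parietal endoderm markers, beside 6.02% of all 7191 genes tested. Over all 7191 genes, 8.87% were called higher in the epithelial captures. The part of the other cells in the results below was not tested. Arrays also parted by the 3' to 5' signal ratio of the Gapdh control. This ratio was 38.7 to 44.4 for pairs 1 and 2, but 7.0 to 17.4 for pairs 3 and 4. Values of the sets, pairs 1 and 2 first and pairs 3 and 4 second, are given for the members, the list medians and some list genes. Marker medians in them were -1.33 and -3.25 for erythroid, 1.06 and 2.06 for endoderm and -0.34 and -2.39 for mesenchyme and mesothelium genes.

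Cubilin had 2 probe sets, and both were higher in the epithelial captures of all 4 pairs. The brighter, 1452270_s_at, read 3918, 5815, 3078 and 4359 in the erythroid captures of pairs 1 to 4 and 8645, 11533, 10315 and 11197 in the epithelial ones. The groups did not overlap, and the lowest epithelial array stood well above the highest erythroid array. The difference was 1.35 ± 0.14 (SE, n = 4 pairs; limma adjusted p = 0.00102). The dimmer probe set, 1426990_at, read 274, 586, 628 and 627 against 632, 1288, 1947 and 3603. Here too the groups did not overlap, though the epithelial arrays spread far more widely, and the difference was 1.66 ± 0.26 (adjusted p = 0.00339). The pairs stood further apart on the dimmer probe set, with 1.05 in pair 2 and 2.65 in pair 4, against a range of 0.98 to 1.66 on the brighter. The sets gave 1.07 and 1.64 on the brighter and 1.17 and 2.15 on the dimmer.

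Amnionless had a single probe set, 1417920_at. Its signals were 766, 499, 994 and 1873 in the erythroid captures and 1115, 1697, 4392 and 5466 in the epithelial ones. The epithelial array was the higher in each pair, but the groups overlapped, since the erythroid capture of pair 4 read above both epithelial captures of pairs 1 and 2. The difference was 1.50 ± 0.24 (SE, n = 4 pairs; limma adjusted p = 0.00347). The sets of pairs gave 1.13 and 1.88. Without the pair as a block, a fit that lets this spread between pairs into the error, the adjusted p was 0.134.

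Megalin gave closely similar differences on its 2 probe sets. On 1427133_s_at the erythroid captures read 317, 518, 338 and 324, and the epithelial captures 788, 840, 1138 and 1268. On 1452320_at the values were 282, 372, 241 and 260 against 445, 742, 1051 and 730. Neither probe set showed any overlap between the groups, and pair 2 of the first and pair 1 of the second had the smallest gaps. The differences were 1.44 ± 0.26 and 1.34 ± 0.27 (SE, n = 4 pairs; limma adjusted p = 0.00548 and 0.00948). The sets gave 0.98 and 1.90 on the first probe set and 0.83 and 1.84 on the second. The call of 1452320_at ended without pair 4 (adjusted p = 0.0628), while 1427133_s_at passed with any pair left out.

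The genes of this receptor complex lie apart in the genome and differ in their start regions. In GRCm38.p6, Cubn spans chr2:13276338-13491876 and Lrp2 spans chr2:69424335-69586029, 55.9 Mb apart, while Amn lies at chr12:111271096-111276426 and Lrp1 at chr10:127538157-127621148. The 200 bases before the annotated start are shown for the 3 genes of the complex and for Lrp1, the member with no call, 5′ to 3′ on the strand of the gene. The sequences are those of RefSeq, whose table held 7 of the 8 members, and capitals mark matches on either strand to any of 7 motifs. These were GTTAAT for an HNF1 half-site, CAAAGTCCA for HNF4, TGTTTAC for FOXA, AGATAA for GATA factors, GGGCGG for the GC box, TATAAA for the TATA box and CCAAT for its own box.
Cubn, chr2:13491877-13492076, minus strand: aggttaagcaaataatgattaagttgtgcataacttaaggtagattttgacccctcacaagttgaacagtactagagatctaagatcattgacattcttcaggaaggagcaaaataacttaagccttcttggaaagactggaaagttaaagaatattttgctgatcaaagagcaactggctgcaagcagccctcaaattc
Amn, chr12:111270896-111271095, plus strand: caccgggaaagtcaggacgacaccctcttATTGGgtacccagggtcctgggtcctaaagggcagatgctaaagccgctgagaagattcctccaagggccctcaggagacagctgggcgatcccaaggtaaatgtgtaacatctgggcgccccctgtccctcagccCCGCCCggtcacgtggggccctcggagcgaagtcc
Lrp2, chr2:69586030-69586229, minus strand: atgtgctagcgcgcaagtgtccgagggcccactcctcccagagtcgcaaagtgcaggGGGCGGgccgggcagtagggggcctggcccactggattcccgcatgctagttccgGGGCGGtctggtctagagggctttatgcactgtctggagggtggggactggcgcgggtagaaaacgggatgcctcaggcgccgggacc
Lrp1, chr10:127621149-127621348, minus strand: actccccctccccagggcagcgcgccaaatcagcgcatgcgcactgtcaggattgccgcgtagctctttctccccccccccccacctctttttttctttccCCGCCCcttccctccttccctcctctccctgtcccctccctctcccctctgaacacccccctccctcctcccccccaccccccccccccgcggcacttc

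The Cubn window held none of the 7 motifs and 0 CpG, as did 10.6% of all 32851 windows for CpG, and 37.0% of its bases were G or C, against a median of 53.0%. Amn and Lrp2 had 62.0% and 67.0% G or C, with 10 and 14 CpG, and Lrp1 had 68.5% with 9. GC boxes stood in the windows of Amn (1), Lrp2 (2) and Lrp1 (1), and in that of Lrpap1 (5), beside 31% of all windows. Amn also held CCAAT on the opposite strand, a match found in 29.3% of windows. Among the members not printed, GTTAAT stood in the downstream window of Dab2, which has 2 annotated start regions here, and TGTTTAC in that of Fcgrt (5.06% and 2.51% of all windows). HNF4, GATA and TATAAA letters were found in no member window and in 0.317%, 7.8% and 9.96% of all windows. None of the matches overlapped another. The windows of genes that were higher together thus ran from 37.0% to 67.0% G or C, and Lrp1 lay next to Lrp2 in composition.

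Lrp1 is another giant receptor of the LDL receptor family, a scavenger of protease complexes and lipoprotein remnants in many cell types. It was the member with no call. Its 1 probe set, 1448655_at, read 154, 185, 162 and 237 in the erythroid captures and 217, 162, 210 and 165 in the epithelial ones. The groups overlapped fully, and the epithelial array was the higher in 2 of 4 pairs. The difference of 0.17 had a 95% interval of -0.52 to 0.86 (limma adjusted p = 0.762), which leaves room for a change of either sign, and it was -0.02 without pair 1. All 8 arrays read above background, which was 55.1 to 133, but not far above it. Set against Lrp1 within pairs, the difference of Cubn was larger by 1.18 (SD 0.71, n = 4 pairs) and that of Lrp2 by 1.27 (SD 0.65), in 4 of 4 pairs each. The two-sided exact sign-flip p was 0.125 for both, the smallest that 4 pairs allow, and 0.219 after Benjamini-Hochberg adjustment over the 7 members compared with Lrp1. Lrpap1 and Dab2 also exceeded Lrp1 in 4 of 4 pairs, and Amn, Folr1 and Fcgrt in 3. This contrast was not planned and takes the member with no call as its reference, so these counts are only descriptive. Markers of mesenchyme, a tissue in which Lrp1 is abundant, were lower in the epithelial captures (Col1a1 -1.63 ± 0.39, adjusted p = 0.0212). Col1a1 stood at -0.47 and -2.78 in the sets, an interaction that was called (adjusted p = 0.00140). Lrp1 stood at 0.15 and 0.19 in the same sets. What mesenchyme contributes to the signal of Lrp1 was not tested.

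**Figure D2:**
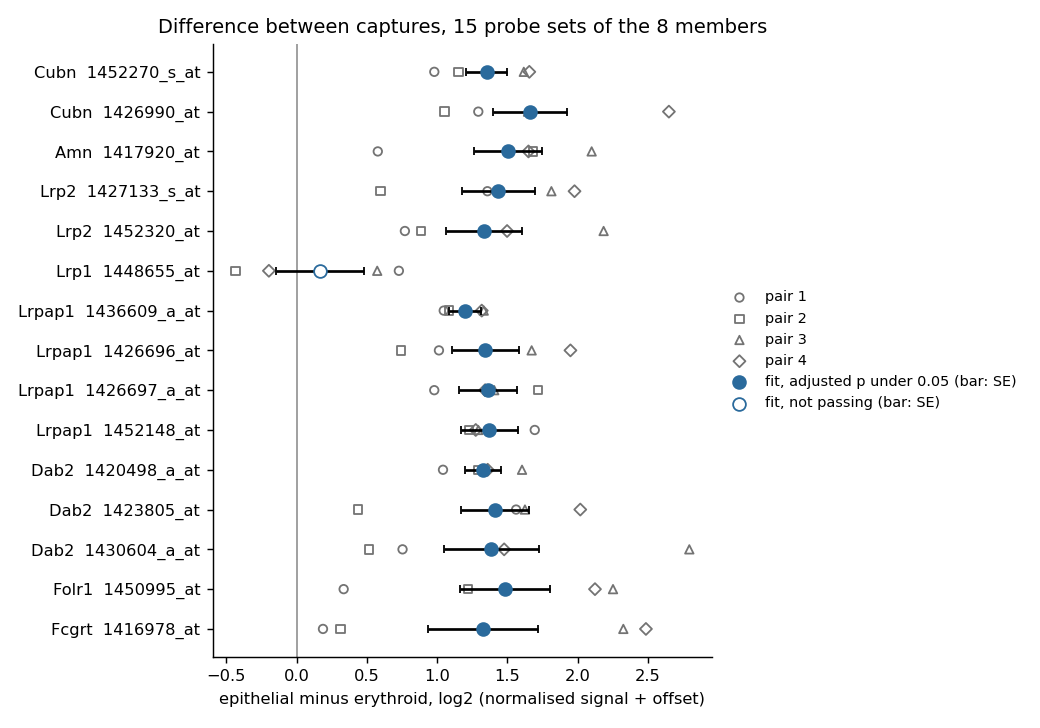
Difference between captures (epithelial minus erythroid, log2) for the 15 probe sets, with open grey symbols for the 4 pairs and filled circles for fits with an adjusted p under 0.05, bars giving the SE. In 14 probe sets all 4 pairs lie above 0, and those of Lrp1 straddle it between -0.43 and 0.73.

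Lrpap1, the chaperone that keeps LDL receptor family members free of ligand on their way through the endoplasmic reticulum, had 4 probe sets, and all were higher in the epithelial captures. The brightest, 1436609_a_at, read 4792, 5939, 4624 and 5466 in the erythroid captures and 11126, 11346, 12800 and 11386 in the epithelial ones. This was the most even of all member probe sets: the 4 pairs differed by 1.05, 1.09, 1.33 and 1.32. The fit gave 1.20 ± 0.11 (SE, n = 4 pairs; limma adjusted p = 0.00102). The other 3 probe sets, between 294 and 2899 in signal, gave 1.34 to 1.37 (adjusted p = 0.00280 to 0.00503). In the sets, 1436609_a_at gave 1.07 and 1.33, 1426696_at 0.88 and 1.81, and 1426697_a_at 1.35 and 1.37. None of the 4 showed overlap between the groups. One of them, 1452148_at, was the only member probe set with a smaller gap in pairs 3 and 4 (1.28) than in pairs 1 and 2 (1.46).

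Dab2, the adaptor that recruits megalin to clathrin, had 3 probe sets, again all higher in the epithelial captures. On 1420498_a_at the erythroid captures read 3811, 4823, 3033 and 4973 and the epithelial captures 8785, 10880, 10104 and 10760. The difference was 1.33 ± 0.13 (SE, n = 4 pairs; limma adjusted p = 0.00102) and lay between 1.04 and 1.61 in the single pairs. This evenness was not shared by the other probe sets of the gene. On 1423805_at the values were 950, 2113, 1050 and 961 against 2995, 2890, 3364 and 3632, with a difference of 1.41 ± 0.24 (adjusted p = 0.00452). On 1430604_a_at they were 554, 537, 122 and 546 against 902, 828, 806 and 1512, with 1.39 ± 0.34 (adjusted p = 0.0213). The erythroid capture of pair 3 stood far below the other erythroid captures there. The sets gave 1.17 and 1.48 on 1420498_a_at, 1.00 and 1.82 on 1423805_at and 0.63 and 2.14 on 1430604_a_at. For the last, the call ended without pair 3 (adjusted p = 0.0634) and without pair 4 (0.102).

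Folr1 and Fcgrt, receptors for folate and for the Fc part of immunoglobulin G, were the members whose epithelial signals parted most between the sets of pairs. Folr1, a folate receptor tethered to the membrane by a lipid anchor, read 165, 81.0, 423 and 558 in the erythroid captures and 176, 210, 1927 and 2366 in the epithelial ones on 1450995_at. Both groups were much lower in pairs 1 and 2, where 1 erythroid array lay below background, so the groups overlapped across pairs. The difference was 1.48 ± 0.32 (SE, n = 4 pairs; limma adjusted p = 0.0125). Pairs 1 and 2 gave 0.78, pairs 3 and 4 gave 2.19. Its call ended without pair 3 (adjusted p = 0.0686), without pair 4 (0.107) and with no pair block (0.382).

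Fcgrt, the neonatal Fc receptor that carries immunoglobulin across epithelia and spares it from lysosomes, read 275, 255, 428 and 238 in the erythroid captures and 280, 349, 2060 and 1333 in the epithelial ones on 1416978_at. Only the epithelial captures of pairs 3 and 4 stood out from the other 6 arrays. The difference over all pairs was 1.33 ± 0.39 (SE, n = 4 pairs; limma adjusted p = 0.0469), just inside the threshold. Pairs 1 and 2 gave 0.25 but pairs 3 and 4 gave 2.41, a gap of 2.16 ± 0.43 that was called as an interaction (adjusted p = 0.0126). Fcgrt lost its call without pair 3 (adjusted p = 0.195), without pair 4 (0.235), with no pair block (0.21), with no filter (0.0659) and with an offset of 1 (0.0501). B2m, the light chain that Fcgrt needs to leave the endoplasmic reticulum, was higher by 0.89 ± 0.17 (adjusted p = 0.00733), at 0.56 and 1.22 in the sets, with no call without pair 4 (0.0553).

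The wider gap in pairs 3 and 4 was not particular to the members. Of the 15 member probe sets, 14 had the larger difference in pairs 3 and 4, with medians of 1.00 and 1.82 in the sets, as had 759 of the 881 probe sets called higher in the epithelial captures. The interaction was called for 1 of the 15, Fcgrt, against 1.84% of all probe sets tested. At an unadjusted p under 0.05 it was 9 of 15, and 1530 of all 11449. Fitted alone, pairs 1 and 2 gave 10 of 15 calls, beside 4.7% of all probe sets called higher. Pairs 3 and 4 gave 14, beside 12.4%. Each of these fits had 1 residual degree of freedom, so its calls rest largely on the variance that limma borrows from other probe sets. In pairs 1 and 2 the probe sets without a call were those of Lrp1, Folr1 and Fcgrt, with 1452320_at of Lrp2 and 1430604_a_at of Dab2. The epithelial captures of pairs 3 and 4 exceeded those of pairs 1 and 2 by 3.34 for Folr1, 2.23 for Fcgrt and 1.79 for Amn on the log2 scale, against a median of -0.05 over all probe sets tested. For the brightest probe sets of Cubn, Lrp2, Lrpap1 and Dab2 this shift was 0.28 to 0.41. Dimmer probe sets of the same genes did not all follow them. The shift was 1.45 on 1426990_at of Cubn and 1.33 on 1426696_at of Lrpap1, but -0.21 to 0.41 on the rest. The sets part by the 3' to 5' ratio of the control probe sets given above, and its part in these shifts was not tested.

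**Figure D3:**
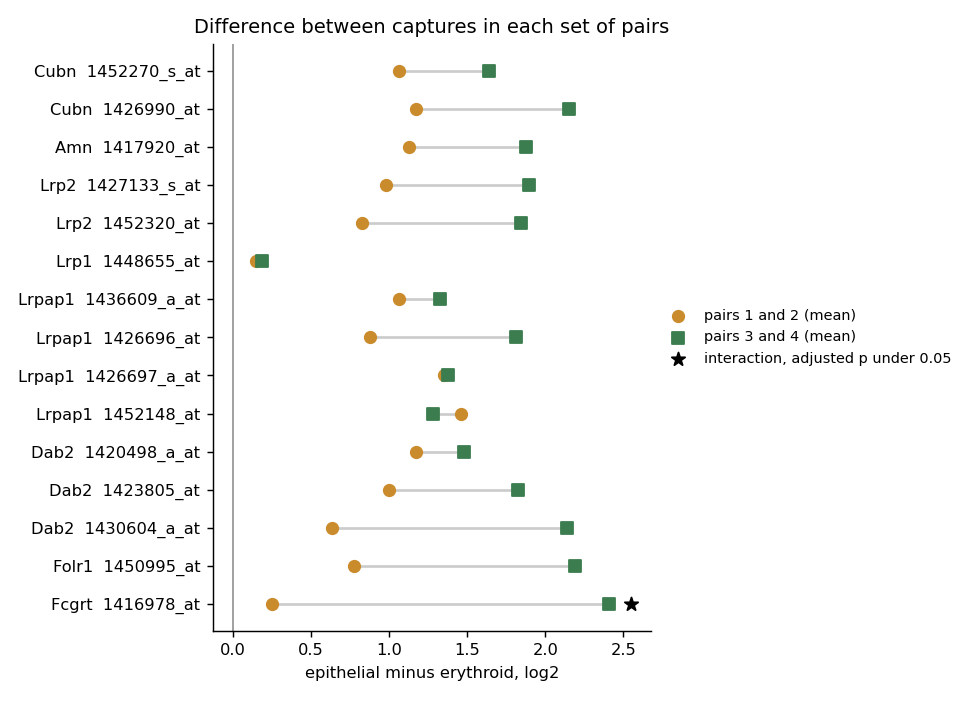
Mean difference (epithelial minus erythroid, log2) in pairs 1 and 2 (circles) and in pairs 3 and 4 (squares) for each of the 15 member probe sets, with a star where the interaction had an adjusted p under 0.05. The gap is widest for Fcgrt (0.25 and 2.41) and nearly closed for Lrp1 and 1426697_a_at of Lrpap1.

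Over the 8 arrays the brightest probe sets of Cubn, Dab2, Lrpap1 and Lrp2 followed each other, and among the members Amn was most like Folr1. Pearson's r of the normalised values was 0.987 for Cubn with Dab2, 0.975 for Cubn with Lrpap1 and 0.926 for Cubn with Lrp2, but 0.723 for Cubn with Amn and 0.467 for Cubn with Folr1. For Amn with Folr1 it was 0.935, and for Lrp1 with Cubn 0.209. Across all 7190 other genes tested, the 3 most like Cubn were Slc2a2, a glucose transporter of liver and gut epithelium (0.991), Pcyox1 (0.988) and Dab2, and those most like Dab2 were Pcyox1 (0.989), Cubn and S100a1 (0.984). Slc40a1, which exports iron from cells (0.992), Rnf185 (0.988) and Tmem33 (0.986) were most like Lrp2, and Mpp1 (0.996), the claudin Cldn7 (0.993) and Aldh7a1 (0.987) most like Amn. For Lrp1 the closest were Zfp53 (0.924), Gon4l (0.886) and Sorbs3 (0.884), of which 0 were called between the captures. These correlations describe 8 arrays that share both the cell type contrast and the sets of pairs, and carry no test.

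Other receptors were read gene by gene in 2 lists. Of 5 further LDL receptor family and sorting receptors tested, only Sorl1 was called, higher in the epithelial captures by 1.13 ± 0.33 (SE, n = 4 pairs; limma adjusted p = 0.0471), beside 8.87% of all 7191 genes tested that were called higher and 6.02% called lower. Its call ended without pair 1 (adjusted p = 0.0734), pair 3 (0.16) or pair 4 (0.185) and with the deposited scaling (0.0658), among other settings, and 2 of 4 erythroid arrays read above background. The list's median was 0.50, against 0.01 over all genes tested, with 0.14 and 1.05 in the sets of pairs. It was 0.61 without pair 1, 0.83 without pair 2, 0.12 without pair 3 and 0.33 without pair 4, and 0 of the 5 genes were called without pair 1, 3 or 4. Lrp6, a Wnt co-receptor, was at 0.60 ± 0.28 (adjusted p = 0.189). Of 12 other endocytic receptors, 2 were lower in the epithelial captures and 1 higher, at a median of -0.16. The transferrin receptors of red cell precursors were those lower: Tfrc fell by 1.59 ± 0.28 (adjusted p = 0.00489) and Tfr2 by 2.05 ± 0.43 (adjusted p = 0.0110). The sets gave -0.94 and -2.24 for Tfrc, and -1.14 and -2.96 for Tfr2. The call of Tfr2 ended without pair 3 (0.0586) or pair 4 (0.0792). The higher 1 was the Fc receptor Fcgr3 at 1.23 ± 0.23 (adjusted p = 0.00729), with no call without pair 4 (0.0572). The list had a median of 0.41 over pairs 1 and 2, of -0.59 over pairs 3 and 4, of -0.39 without pair 2 and of 0.23 without pair 3. Without pair 4, 0 of the 12 were called higher and 1 lower.

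Known partners of the members were higher in the epithelial captures for 5 of 8 tested and lower for 0. All genes tested gave 8.87% and 6.02%. The median of the partners was 0.66. The largest was Pdzk1, a scaffold of apical membranes, with mean signals of 724 ± 262 and 2839 ± 1625 (SD, n = 4) and a difference of 1.82 ± 0.25 (limma adjusted p = 0.00204). Myo6, the motor that draws endocytic vesicles inward along actin, was higher by 1.38 ± 0.23 (adjusted p = 0.00416), and both were called with any pair left out. B2m, given above, Numb (0.80, adjusted p = 0.0173) and Ehd1 (0.52, adjusted p = 0.0188) made up the rest. Without pair 4, 2 of 8 were called and without pair 3, 3 of 8, as Numb (adjusted p = 0.0968 and 0.0585) and Ehd1 (0.0740 and 0.0567) lost their calls. Ehd1 was also lost without pair 2 (0.0714). Clcn5, a chloride exchanger of endosomes, was at 0.38 ± 0.18 (adjusted p = 0.171), and the list's medians were 0.57 and 0.83 in the sets.

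Coat and recycling genes of vesicles made up another 2 lists. Beside them stand 8.87% of all 7191 genes tested called higher and 6.02% called lower. Of 20 clathrin coat and adaptor genes, 3 were higher in the epithelial captures and 0 lower. The median was 0.17, with 0.28 and 0.14 in the sets, 0.29 without pair 1, 0.26 without pair 3, 0.11 with the deposited scaling and 0.29 with median centring. Those called were Tom1 (0.92 ± 0.20, limma adjusted p = 0.0145), the clathrin heavy chain Cltc (0.66 ± 0.11, adjusted p = 0.00489) and the AP2 subunit Ap2m1 (0.64 ± 0.17, adjusted p = 0.0291). Cltc was called with any pair left out but not with arrays centred on the median (adjusted p = 0.0608) or the 75th percentile (0.0577). Tom1 lost its call without pair 3 (0.0659) or pair 4 (0.054), and Ap2m1 without pair 1 (0.0664), pair 2 (0.0987) or pair 4 (0.135). Without pair 4, 1 of the 20 was called, and without pair 2 another gene of the list was called lower. Of 26 genes of endosome sorting and recycling, 5 were higher and 0 lower, at a median of 0.37, with 0.31 and 0.39 in the sets. These were Rab4a, a GTPase of fast recycling, at 1.42 ± 0.32 (adjusted p = 0.0154), the retromer subunits Vps26a (0.86 ± 0.16, adjusted p = 0.00652) and Vps35 (0.55, adjusted p = 0.0162), Vamp8 (0.74, adjusted p = 0.0186) and Rab22a (0.72, adjusted p = 0.0381). Rab4a was called with any pair left out, and 1 call of the 5 remained without pair 4 and 2 without pair 3. Rab22a lost its call without any of the pairs (adjusted p = 0.0602 to 0.151). Vps26a lost it without pair 4 (0.0522), Vps35 without pair 3 (0.0585) or pair 4 (0.0701), and Vamp8 without pair 3 (0.0858) or pair 4 (0.0821).

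Genes for proteins that megalin and cubilin bind were higher in the epithelial captures for 10 of 17 tested and lower for 0. All genes tested gave 8.87% and 6.02%. The list's median was 0.92, and 0.85 and 1.20 in the sets. The largest was Ambp, the precursor of alpha-1-microglobulin, at 2.25 ± 0.41 (SE, n = 4 pairs; limma adjusted p = 0.00587). Its sets gave 2.49 and 2.01, and 3 of 4 erythroid arrays read above background. Next came the lipoprotein protein Apoe at 1.75 ± 0.33 (adjusted p = 0.00693), whose call ended without pair 4 (0.0632). The sets gave 0.85 and 2.65 for Apoe, an interaction that was called (limma adjusted p = 0.00998). Rbp4, the retinol carrier of serum, was higher by 1.07 ± 0.12 (adjusted p = 0.00102). The brightest probe sets of the carriers Afp and Ttr gave 0.16 and 0.20, with no call. Their mean signals were 26125 to 29130, while the highest signal of an array was 24645 to 58408. How far signals this high still follow the amount of RNA was not tested. Of the 17 genes, 5 also stand among the endoderm markers above. B2m, which was called, is counted both here and among the partners. Without pair 4, 7 of the 17 were called. The 6 lists together had 26 of 87 genes called, 2 of them lower in the epithelial captures. Either without the pair term or without a variance trend, 9 of 87 were called. Ambp (adjusted p = 0.235), Apoe (0.434), Rbp4 (0.125), Rab4a (0.119) and B2m (0.116) were among those lost without the pair term, and Tfrc (0.0623) among those lost without the trend.

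**Figure D4:**
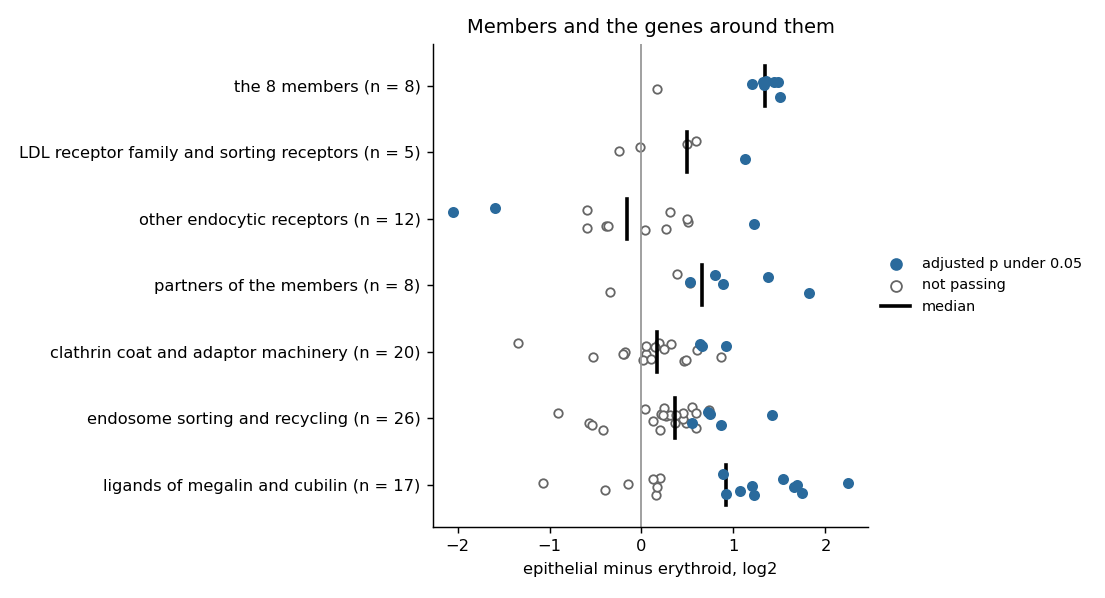
Difference between captures (epithelial minus erythroid, log2) for the brightest tested probe set of each of the 8 members and of the genes in 6 lists around them, with filled points for an adjusted p under 0.05 and a black bar at each median. The members lie near 1.34 apart from Lrp1, the coat and recycling genes lie mostly between 0 and 1, and the transferrin receptors lie below -1.5.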

How the data were processed

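The authors deposited 1 intensity per probe set and array from Affymetrix mouse arrays. It was read here as a linear MAS5 signal, from the tools named and the values themselves; the scale is not stated in the sources used here. GCOS, MAS5 and affy are named in the submitters' processing notes, without a version. The mean after trimming 2% at each end was 500 on every array, and array medians were 81.6 to 127. Detection calls were not used here. Of 22626 probe sets without controls, 20380 had 1 gene, 691 several and 1555 none; 20351 symbols were updated through gene identifiers. An offset of 8.16 (the 10th percentile) was added before log2. Array medians then spanned 0.59, over the limit of 0.5, so arrays were quantile normalised. Probe sets at or above the array median on at least 4 of 8 arrays were tested (11449) in R 4.3.3 with limma 3.58.1: lmFit with pair and cell type (3 residual degrees of freedom), eBayes with a variance trend, two-sided. The pairing comes from the labels' protocols, and deviations of paired samples from their group means correlated at 0.31 to 0.54. Arrays of different pairs were not compared in this way, so these values do not test the pairing. A gene outside the members was read from its brightest tested probe set. The background of each array was set by 117 probe sets of odorant receptors and similar genes (their 95th percentile). The number of arrays limits the precision. The procedure was tested on simulated data.

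The members and lists were chosen with earlier results of these data known. Named genes were all members, the 2 called genes with the largest difference in each direction per list, the 3 genes most correlated with each of 5 members, and set markers; B2m, Numb, Ehd1, Ap2m1, Vps35, Vamp8, Rab22a, Lrp6, Clcn5, Rbp4, Afp and Ttr were chosen after their values were seen. The contrast of the other members with Lrp1 was not planned. Alternatives covered scaling, offset, filter, variance trend, pair term, each pair left out and each set of pairs.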

Additional observations from a re-analysis of the deposited data

Results flagged for a closer look

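Among the 15 member probe sets, 30 groups of 4 arrays were examined for an array far from the others, and 2 held one; chance gives about 1 in 20. The erythroid capture of pair 1 read 8.17 (normalised log2 signal) on 1426990_at of Cubn, with a deposited signal of 274 against 586 to 628 in the other erythroid captures. The erythroid capture of pair 3 read 6.86 on 1430604_a_at of Dab2, with a deposited signal of 122 against 537 to 554. The other 2 probe sets of Dab2 did not single out that array.

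The difference of Fcgrt between captures was larger by 2.16 (log2) in pairs 3 and 4 than in pairs 1 and 2, and the test of this interaction passed (limma adjusted p = 0.0126). The Gapdh 3' to 5' ratio was 38.7 to 44.4 in pairs 1 and 2 and 7.0 to 17.4 in pairs 3 and 4, and its part in this result was not tested.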

How the results depend on the processing

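Over the 15 member probe sets, 224 values were computed under alternatives: 199 kept their direction and their side of the threshold, 24 kept the direction and lost the call, and 1 changed sign, that of Lrp1 without pair 1 (-0.020, adjusted p = 0.982; leaving out each pair in turn gave -0.020 to 0.39). With no replicate block, that is without the pair term, 8 of the 15 probe sets were called, 445 of all probe sets tested and 9 of the 87 list genes, against 14, 1590 and 26; the losses among members were 1426990_at of Cubn (adjusted p = 0.0681), 1426696_at of Lrpap1 (0.0739), 1430604_a_at of Dab2 (0.143), Amn, Folr1 and Fcgrt. Without a variance trend the counts were 9, 519 and 9, with 1452320_at of Lrp2 (0.0527), 1423805_at (0.0513) and 1430604_a_at (0.0958) of Dab2, Folr1 (0.0675) and Fcgrt (0.14) lost. Leaving out each pair in turn gave 10 to 14 member probe sets, 517 to 1506 of all and 12 to 24 list genes. Pairs 1 and 2 alone gave 1007 of all, and pairs 3 and 4 alone 2786, each fit with 1 residual degree of freedom. Without x, s and a probe sets, 9 member probe sets were left and 8 called. The causes were not tested, and some alternatives also leave fewer samples or probe sets. Median centring moved the median of all probe sets tested from -0.02 to 0.11 and the share of calls higher in the epithelial captures from 55.4% to 70.7%; under it and under both other scalings 14 of 15 member probe sets were called. List medians moved too: with the deposited scaling the LDL receptor family list stood at 0.32, and with median centring the other receptors stood at -0.03 and the endosome list at 0.56. With the filter on all 8 arrays the lists of LDL family, other receptors and clathrin genes stood at 0.29, 0.04 and 0.28. That filter left 2 of 5, 9 of 12 and 16 of 20 genes in them, so these medians cover fewer genes. The dim signals of Lrp1, and of Folr1 in pairs 1 and 2, limit what can be said of them, and Folr1 had no value where all 8 arrays had to reach the median.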

Other observations

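Fcgr3, an Fc receptor known from macrophages, was higher in the epithelial captures while the other macrophage markers tested were not called. Its signals were 157, 231, 197 and 202 in the erythroid captures of pairs 1 to 4 and 315, 463, 507 and 507 in the epithelial ones, with no overlap between the groups, as for 6.48% of all probe sets tested. The 6 other macrophage and leukocyte markers tested lay between -0.84 and 0.23 (log2, epithelial minus erythroid), 0 of them called with limma (lowest adjusted p = 0.142), with Csf1r at -0.51 ± 0.22 (SE, n = 4 pairs). Of the 16 such markers measured, 6 lay at or below background on all 8 arrays, C1qa, Cd68 and Aif1 among them.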
